A study of Mus musculus with 46 samples.

Results

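The data described here are 6 of the 46 RNA-seq samples of a mouse series on the chromatin remodelling subunit Arid1a: 4 double-knockout libraries and the 2 untreated control libraries they were compared with. They were chosen by label alone. B16F10 is a mouse melanoma line grown in culture. The controls carry a scrambled guide RNA (sgScramble, 2 libraries), and the double knockouts carry a guide to Arid1a together with a guide to Cgas (Cgas_dKO, 2 libraries) or to Sting (Sting_dKO, 2 libraries). All 6 are labelled as untreated. The deposited table also holds 2 untreated sgArid1a libraries, used here as the reference for Arid1a loss with sensing in place, and a separate table holds sgScramble and sgArid1a cells kept in DMSO for 72 h (2 libraries each), which share no library with the comparison. The labels do not say whether the lines are clones or pools, the cell line field of the double knockouts reads B16F11 to B16F14 while their titles read B16F10, and replicates are not said to be separate cultures, so p-values measure only the spread between these samples, which may be technical. The 2 Sting_dKO columns are numbered 17 and 18 and are called libraries 17 and 18.

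Arid1a is a subunit of the BAF (SWI/SNF) complexes, which move nucleosomes at enhancers and promoters. cGAS is a sensor of cytosolic DNA that makes the second messenger cGAMP, and Sting is the adaptor that binds it and leads, through Tbk1 and Irf3, to type I interferon and then to interferon-stimulated genes. The comparison asks which of the expression changes that come with Arid1a loss are still seen when either gene of this sensing route is also targeted.

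The targeted transcripts did not all follow the labels. Arid1a (chr4:133679008-133753611, minus strand, mm10) stood at log2 values of 10.90 and 11.08 in sgScramble, 10.43 and 10.39 in sgArid1a, 11.03 and 10.74 in Cgas_dKO, and 10.71 and 10.83 in Sting_dKO. In the libraries labelled double knockout it was thus within 0.17 ± 0.09 (SE, 4 against 2 libraries) of sgScramble (limma adjusted p = 0.17) and 0.42 ± 0.09 above sgArid1a (adjusted p = 0.0042). The cGAS transcript, listed as Mb21d1, stood at 7.90 and 7.83 in sgScramble, 8.03 and 7.98 in Cgas_dKO, and 8.16 and 8.33 in Sting_dKO, so it was not lower in the libraries labelled as its knockout. The Sting transcript, Tmem173, was at 9.32 and 9.17 in sgScramble, 9.53 and 9.51 in Cgas_dKO, and 9.04 and 8.87 in Sting_dKO. A guide-directed edit can remove a protein without lowering its transcript, so these levels do not test whether the proteins were lost, and the groups below are the libraries as labelled.

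The melanocyte identity of the cells was clear: Tyrp1, a melanin enzyme, was at 16.48 to 17.07 in the 6 libraries, and Dct, Pmel, Mlana, Mitf and Sox10 were all at 12.06 or more. Most markers of other cells were at 0 or under the filter, with exceptions: Col1a2, a fibrillar collagen, was at 7.31 to 8.10 in the 6 libraries, Pdgfra at 5.68 to 6.87, Pdgfrb at 4.66 to 5.49, Cd68 at 4.66 to 5.21 and Cdh1 at 4.53 to 4.81. In the double knockouts Pdgfra (-0.80, adjusted p = 0.00011), Pdgfrb (-0.56, adjusted p = 0.00062) and Cd68 (-0.40, adjusted p = 0.0015) were lower than in sgScramble, and their part in the results below was not tested. In bulk RNA, fewer cells of a type and less RNA per cell cannot be told apart. Of 20 immune markers 12 were at 0 in every library, Ptprc, Cd3e, Dcn, Cdh5, Kdr, Krt5 and Krt14 among the defining markers were at 0, and the summed immune level was 5.57 to 5.67 in sgScramble and 5.27 to 5.38 in the double knockouts. The fibroblast and endothelial markers summed to 8.44 to 8.58 in sgScramble and 8.07 to 8.58 in the double knockouts, and the epithelial markers to 4.83 and 4.55 to 4.72. Depth, in megareads (M) per library, was 8.7 M and 22.8 M in sgScramble, 15.8 M and 13.8 M in Cgas_dKO, and 10.1 M and 16.4 M in Sting_dKO.

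Genes with near-identical copies set the double knockouts apart from all other libraries of the table. Gapdh, the glycolytic enzyme often used as a reference gene, stood at 12.06 and 12.25 in sgScramble and at 11.71 and 12.28 in sgArid1a, but at 6.74 and 6.21 in Cgas_dKO and 6.93 and 6.59 in Sting_dKO, a difference from sgScramble of -5.54 ± 0.17 (adjusted p = 2.5e-11). The 4 double knockouts were far below the other 4 libraries, with no overlap. Actg1 (-5.90), Rpl35 (-5.86) and Sumo2 (-5.60) had the same pattern. All of them share sequence with other annotated genes: the share of a gene's 31-base words found in another annotated gene was 28.1% for Gapdh and 88.8% for Rpl35. Among genes with 50 to 100% of their words shared, 55.5% were called lower and 10.6% higher, whereas among genes with none shared 22.8% were called lower and 22.4% higher. The sgArid1a libraries did not show it: their median difference from sgScramble was 0.03 for genes with 50 to 100% shared and 0.02 for genes with none.

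**Figure D1:**
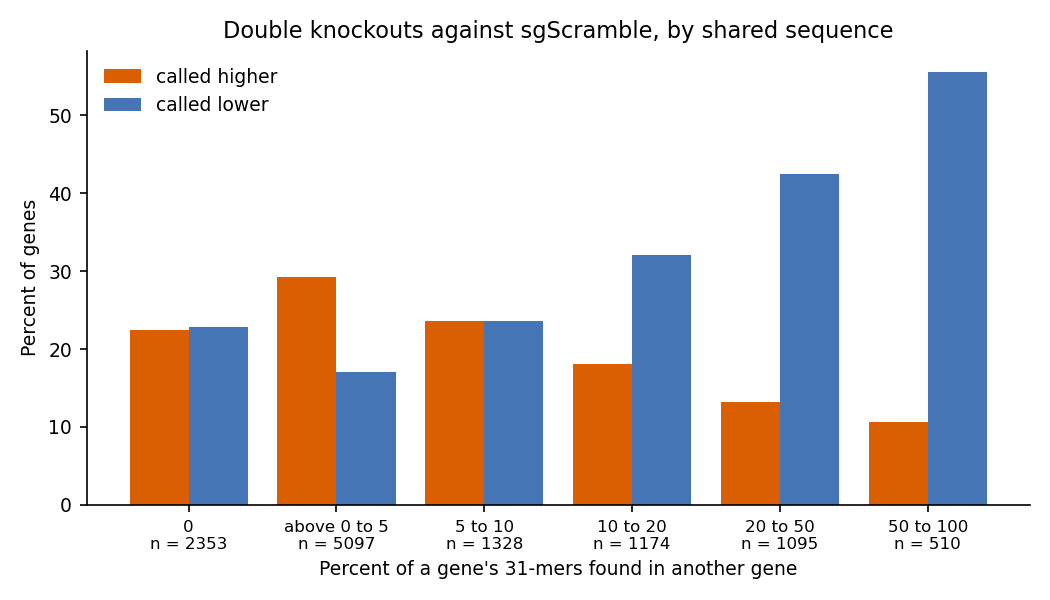
Percent of genes called higher (orange bars) or lower (blue bars) in the 4 double-knockout libraries against the 2 sgScramble libraries, by the percent of a gene's 31-base words found in another gene. The share called lower reached 55.5% where 50 to 100% of the words were shared, against 22.8% where none were.

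The 1605 tested genes with 20% or more of their words shared were therefore set apart, and 47 genes that could not be assessed were left out with them. Of the set-apart genes 12.3% were called higher and 46.5% lower. Whether this pattern comes from the knockouts or from how the libraries were made, sequenced or counted cannot be told apart, because it moves with the group and the labels name no batch. Transcript length and nuclear RNA moved with the group too. The median difference was -0.12 in the shortest of 4 equal groups of genes and 0.15 in the longest, against 0.04 and -0.04 for sgArid1a. The nuclear RNA Malat1 was 1.73 ± 0.13 higher (limma adjusted p = 1.8e-07). Reads at Mir6236, whose origin was not tested, were higher by 2.44 ± 0.25 (adjusted p = 4.1e-06). In the DMSO cultures, deposited apart from these, sgScramble itself stood at 14.0 and 12.97 for Malat1 and at 11.96 and 11.87 for Mir6236. Control libraries thus also had such values, though the scales of the separate deposits may differ. The part of shared sequence, length, nuclear RNA and Mir6236 reads in the results below was not tested beyond the counts given by length and by shared sequence.

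Among the 9952 remaining genes, 2542 (25.5%) were called higher and 2100 (21.1%) lower in the 4 double knockouts than in sgScramble at a limma adjusted p under 0.05. Centring each library on its median moved this split to 3193 higher and 1687 lower, and quantile normalization to 3359 and 1635. All 4 double knockouts were above both controls for 30.9% of genes and below both for 25.3%. Changes of at least 1 log2 unit in the deposited values were few: 55 genes (0.553%) rose and 222 (2.23%) fell by that much. Low values are drawn together on this scale. The authors' edgeR fold changes for Cgas_dKO against sgScramble, over all genes of the table, reached -15.41, against -6.52 among tested genes here. Against the untreated sgArid1a libraries, 18.1% of genes were higher and 15.9% lower in the double knockouts. The untreated sgArid1a libraries themselves differed from sgScramble in fewer genes, 5.85% higher and 6.31% lower, with the same 2 control libraries in that comparison as in the main one. Both comparisons with sgArid1a rested on single libraries. The double knockouts differed from sgArid1a in 956 genes higher and 919 lower without sgArid1a replicate 1, in 647 and 759 without its replicate 2, and in 1129 and 1116 without Cgas_dKO replicate 1, instead of 1800 and 1579. sgArid1a differed from sgScramble in 166 and 271 genes without sgArid1a replicate 1, in 144 and 254 without its replicate 2, and in 1342 and 1112 without sgScramble replicate 2, instead of 582 and 628.

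Most genes that changed with sgArid1a in the DMSO cultures changed the same way in the double knockouts. In DMSO, 342 of the genes without near-identical copies (3.63% of 9415) were higher with sgArid1a and 422 (4.48%) were lower. Of the 342, 269 (78.7%) were also higher in the double knockouts than in untreated sgScramble and 7 were lower, with a median difference of 0.48. Of the 422, 337 (79.9%) were also lower and 6 were higher, with a median of -0.58. The background was 25.5% and 21.1%, and the median of all 9952 genes was 0.03.

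Either double knockout alone gave much the same counts. Against sgScramble, Cgas_dKO was higher for 240 of the 342 genes (background 21.2%) and lower for 310 of the 422 (background 18.4%). Sting_dKO was higher for 261 of the 342 (background 21.9%) and lower for 328 of the 422 (background 18.5%). The shares also stood above the background within each of 4 equal groups by transcript length: 65.7% of the DMSO-higher genes in the shortest group were called higher, against 13.7% of all genes there, and 84.8% in the longest, against 38.1%. Among genes with no shared 31-base word, 62 of 80 DMSO-higher genes (77.5%) and 105 of 124 DMSO-lower genes (84.7%) moved the same way. The DMSO lists themselves depended on single libraries. They held 1331 and 1376 genes without DMSO sgScramble replicate 1 (73% and 65.2% followed) and 672 and 763 without its replicate 2 (63.4% and 49.7%). They held 37 and 111 without DMSO sgArid1a replicate 1 (81.1% and 91%) and 34 and 131 without its replicate 2 (76.5% and 92.4%).

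**Figure D2:**
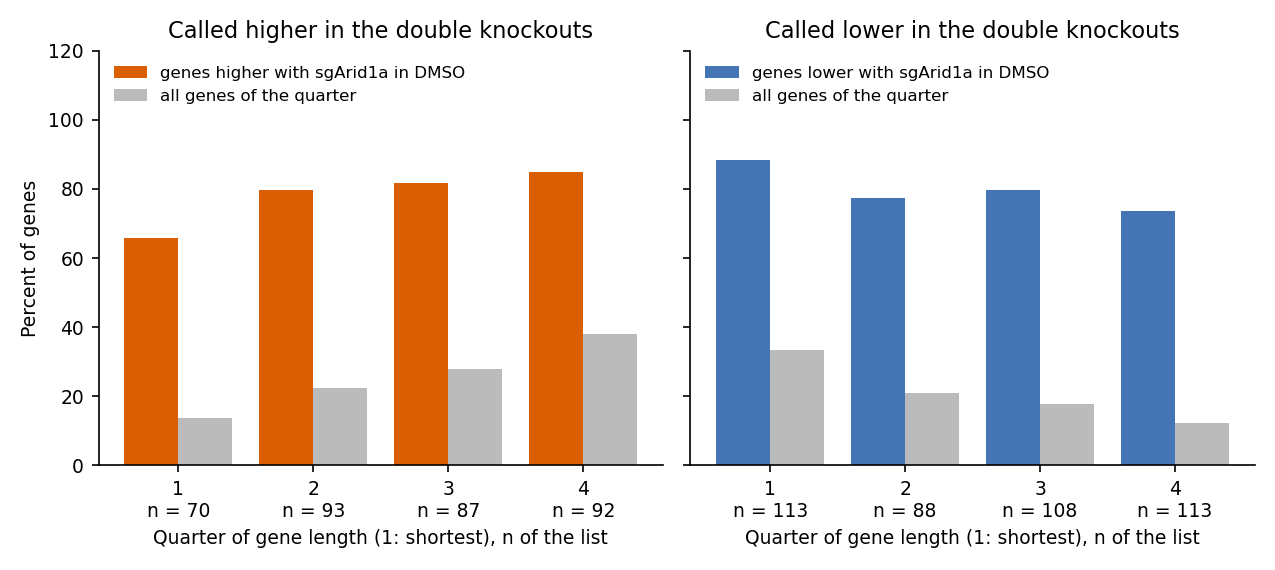
Percent of genes called in the same direction in the double knockouts against sgScramble, for genes called higher (left) or lower (right) with sgArid1a in DMSO (coloured bars) and for all genes of the same length group (grey bars), with 4 length groups from short to long along the horizontal axis. The listed genes ran from 65.7% to 84.8% on the left and from 73.5% to 88.5% on the right, above the grey bars in every group.

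The clearest fall was in the integrated stress response, the program in which Atf4 and Ddit3 (CHOP) raise genes for amino acid supply and stress adaptation when translation initiation is held back. All 15 tested genes of the list were lower in the double knockouts (background 21.1%), with a median of -1.92. All 15 were also lower in untreated sgArid1a (background 6.31%) and in DMSO sgArid1a (background 4.48%), with medians of -1.56 and -0.89. Nupr1, a stress-induced chromatin protein, stood at 8.99 and 9.05 in sgScramble, 6.46 and 6.35 in Cgas_dKO, and 6.41 and 6.26 in Sting_dKO. That was a difference of -2.65 ± 0.10 (adjusted p = 1.3e-10), with all 4 double knockouts well below both controls.

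Trib3, a pseudokinase induced by CHOP, fell from 11.29 and 11.56 to 9.14 and 9.27 in Cgas_dKO and 9.36 and 8.89 in Sting_dKO (-2.26 ± 0.13, adjusted p = 1.4e-08). Ddit3 went from 10.90 and 11.11 to 8.99, 9.0, 8.95 and 8.75 (-2.08 ± 0.10, adjusted p = 2e-09). Chac1, which degrades glutathione, was lower by the same order (-2.0 ± 0.11, adjusted p = 1.4e-08), and so were Ppp1r15a, the regulatory subunit that reverses the eIF2α phosphorylation behind the response (-2.06 ± 0.09), Atf3 (-1.92 ± 0.10) and Vldlr (-2.77 ± 0.10). None of these genes had double-knockout values that reached a control value. Atf4 itself fell least but for Herpud1: 13.02 and 13.21 in sgScramble against 12.61 to 12.78 (-0.44 ± 0.09, adjusted p = 0.001). The Herpud1 difference was -0.23 (adjusted p = 0.03).

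These falls were not evenly deeper or shallower than in sgArid1a with sensing in place. Against sgArid1a, 5 of the 15 genes were higher in the double knockouts (background 18.1%) and 4 lower (background 15.9%), or 2 higher without sgArid1a replicate 2 and 2 lower without its replicate 1. Nupr1, at 5.84 and 5.78 in sgArid1a, was 0.56 ± 0.10 higher in the double knockouts (adjusted p = 0.00058), whereas Vldlr, at 7.77 and 7.91 in sgArid1a and 6.40 to 7.05 in the double knockouts, was 1.08 ± 0.10 lower on the log2 scale.

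Short promoter stretches are shown for 3 genes of this program and 2 of the amino acid list described next, as examples of RefSeq promoters (GRCm38.p6, 250 bases before to 50 after the start) that hold the C/EBP-ATF response element TGATGCAA on either strand. It was found in 4 of 14 matched promoters of the list (Atf3, Chac1, Nupr1 and Herpud1) and in 5 of 20 of the amino acid list, against 0.895% of all 32851 promoters in the table and 0.598% of the 7861 matched promoters of tested genes. Capitals mark the match, each stretch lies upstream of the start and reads 5′ to 3′ on the gene's strand, and a match is a description of letters only.
Nupr1 (chr7:126625521-126625610, minus strand): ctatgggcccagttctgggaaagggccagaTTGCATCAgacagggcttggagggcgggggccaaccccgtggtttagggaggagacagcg
Chac1 (chr2:119351019-119351108, plus strand): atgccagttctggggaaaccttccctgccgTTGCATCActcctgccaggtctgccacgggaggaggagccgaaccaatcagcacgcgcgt
Atf3 (chr1:191183384-191183473, minus strand): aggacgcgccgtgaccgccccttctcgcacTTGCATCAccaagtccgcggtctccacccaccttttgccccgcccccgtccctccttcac
Pycr1 (chr11:120643792-120643881, minus strand): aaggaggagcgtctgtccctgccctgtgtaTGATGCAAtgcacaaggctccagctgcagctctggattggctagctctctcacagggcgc
Slc7a11 (chr3:50443620-50443709, minus strand): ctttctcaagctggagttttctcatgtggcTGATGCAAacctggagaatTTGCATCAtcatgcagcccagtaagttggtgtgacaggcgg

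Genes for serine, one-carbon and amino acid supply fell with the stress response but not as far as in sgArid1a. In the double knockouts 21 of 27 were lower and 2 higher than in sgScramble (background 21.1% and 25.5%), with a median of -0.55. In untreated sgArid1a 24 were lower (background 6.31%), with a median of -0.89, and in DMSO 20 of 25 were lower (background 4.48%). Gpt2, an alanine aminotransferase, went from 10.59 and 10.58 to 8.77 and 8.69 in Cgas_dKO and 9.06 and 8.84 in Sting_dKO (-1.75 ± 0.10, adjusted p = 8.4e-09). Aldh1l2, the mitochondrial formyl-tetrahydrofolate dehydrogenase, fell by 1.62 ± 0.10, and Asns, asparagine synthetase, was at 12.59 and 12.37 in sgScramble, 11.11 and 11.02 in sgArid1a, and 11.52 to 11.77 in the double knockouts. Directly against sgArid1a, 19 of the 27 were higher in the double knockouts (background 18.1%) and none lower, with a median of 0.37 (11 without sgArid1a replicate 2). Shmt2, the mitochondrial serine hydroxymethyltransferase, was 0.68 above sgArid1a (adjusted p = 1e-04) and -0.20 from sgScramble (adjusted p = 0.093). Phgdh, which makes the first step of serine synthesis, shares sequence with other genes and was set apart (56.3% of words shared, -1.81).

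**Figure D3:**
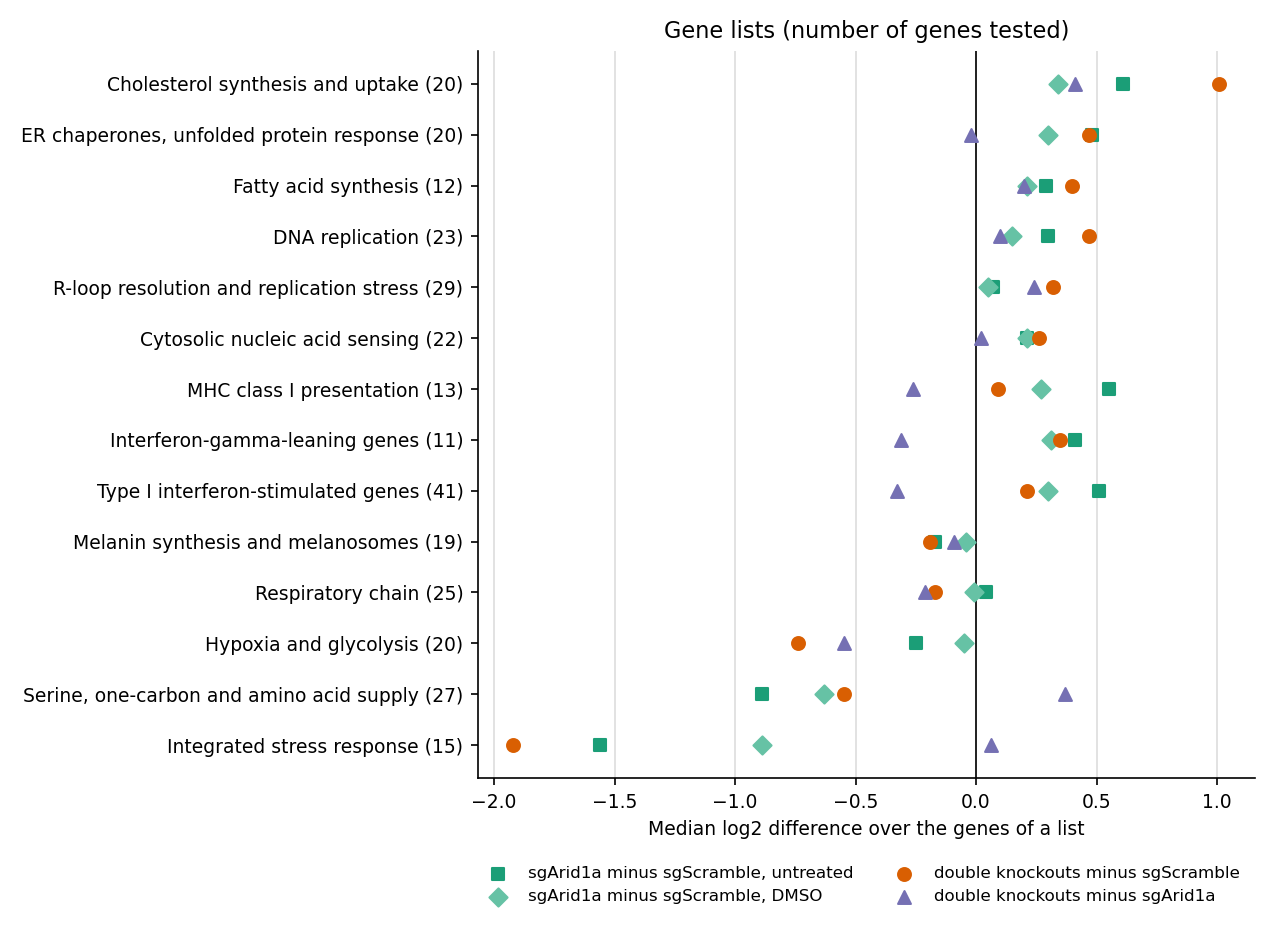
Median log2 difference over the tested genes of 14 lists (number of genes in brackets) in 4 comparisons: untreated sgArid1a minus sgScramble (squares), DMSO sgArid1a minus sgScramble (diamonds, somewhat fewer genes tested), the 4 double knockouts minus sgScramble (circles) and the double knockouts minus sgArid1a (triangles). Circles lie at -1.92 for the integrated stress response and 1.01 for cholesterol synthesis. Triangles are below 0 for the interferon lists, at -0.33 for type I interferon-stimulated genes.

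Sterol genes rose. All 20 tested genes of cholesterol synthesis and uptake were higher in the double knockouts than in sgScramble (background 25.5%), with a median of 1.01. In untreated sgArid1a 16 of them were higher (background 5.85%), with a median of 0.61, and in DMSO sgArid1a 13 of 19 (background 3.63%). Lss, which closes the sterol rings, stood at 8.76 and 9.01 in sgScramble, 9.57 and 9.65 in sgArid1a, 10.44 and 10.33 in Cgas_dKO, and 10.24 and 10.20 in Sting_dKO. Its rise over sgScramble was 1.42 ± 0.09 (adjusted p = 3.6e-08), and all 4 double knockouts were above both sgArid1a libraries as well as both controls.

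Mvd, of the mevalonate branch, rose by 1.71 ± 0.14 and Hmgcs1, HMG-CoA synthase, by 1.27 ± 0.07 (adjusted p = 1.4e-08). Among all tested genes without near-identical copies, 18.1% were higher and 15.9% lower in the double knockouts than in sgArid1a. Against sgArid1a 14 of the 20 were higher (9 without sgArid1a replicate 2) and 1, Insig1, the sterol-responsive brake on the pathway, was lower. Of 4 set-apart members, Acat2 and Fdft1 were called higher, Fdps was -0.01 and Idi1 fell by 1.90. The sterol response element TCACCCCAC was found, on either strand, in 1 of 15 matched promoters of the list, Hmgcs1, against 0.551% of all promoters. It is shown with the match in capitals.
Hmgcs1 (chr13:119690184-119690273, plus strand): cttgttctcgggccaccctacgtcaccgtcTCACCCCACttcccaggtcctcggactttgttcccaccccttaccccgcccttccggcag

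Fatty acid synthesis followed the sterol genes: 8 of 12 genes were higher and 1 lower (background 25.5% and 21.1%), with a median of 0.40. Fasn, fatty acid synthase, rose from 11.99 and 12.50 to 14.06, 13.90, 13.65 and 13.82 (1.61 ± 0.13, adjusted p = 3.3e-07). Scd1, the stearoyl-CoA desaturase, rose by 0.85 ± 0.08 and Elovl6, a chain elongase, by 0.93 ± 0.09. Endoplasmic reticulum chaperones were higher as well, 14 of 20 with 1 lower against a background of 25.5% and 21.1%. In untreated sgArid1a 14 were higher and 1 lower against a background of 5.85% and 6.31% (9 higher without sgArid1a replicate 2). Hspa5 (BiP), the main chaperone of that compartment, was at 13.21 and 13.44 in sgScramble, 14.47 and 14.55 in sgArid1a, and 14.25 to 14.48 in the double knockouts (1.06 ± 0.09, adjusted p = 6.6e-07). It differed from sgArid1a by -0.13 (adjusted p = 0.29). The gene that fell was Ero1l, a thiol oxidase, by 1.79 ± 0.09. The 4 cytosolic heat shock genes without near-identical copies rose (background 25.5%), among them Hsph1 by 1.08 ± 0.08. Of 6 set-apart ones, 5 were called lower and 1 higher (background of set-apart genes 46.5% and 12.3%), with a median of -0.71.

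**Figure D4:**
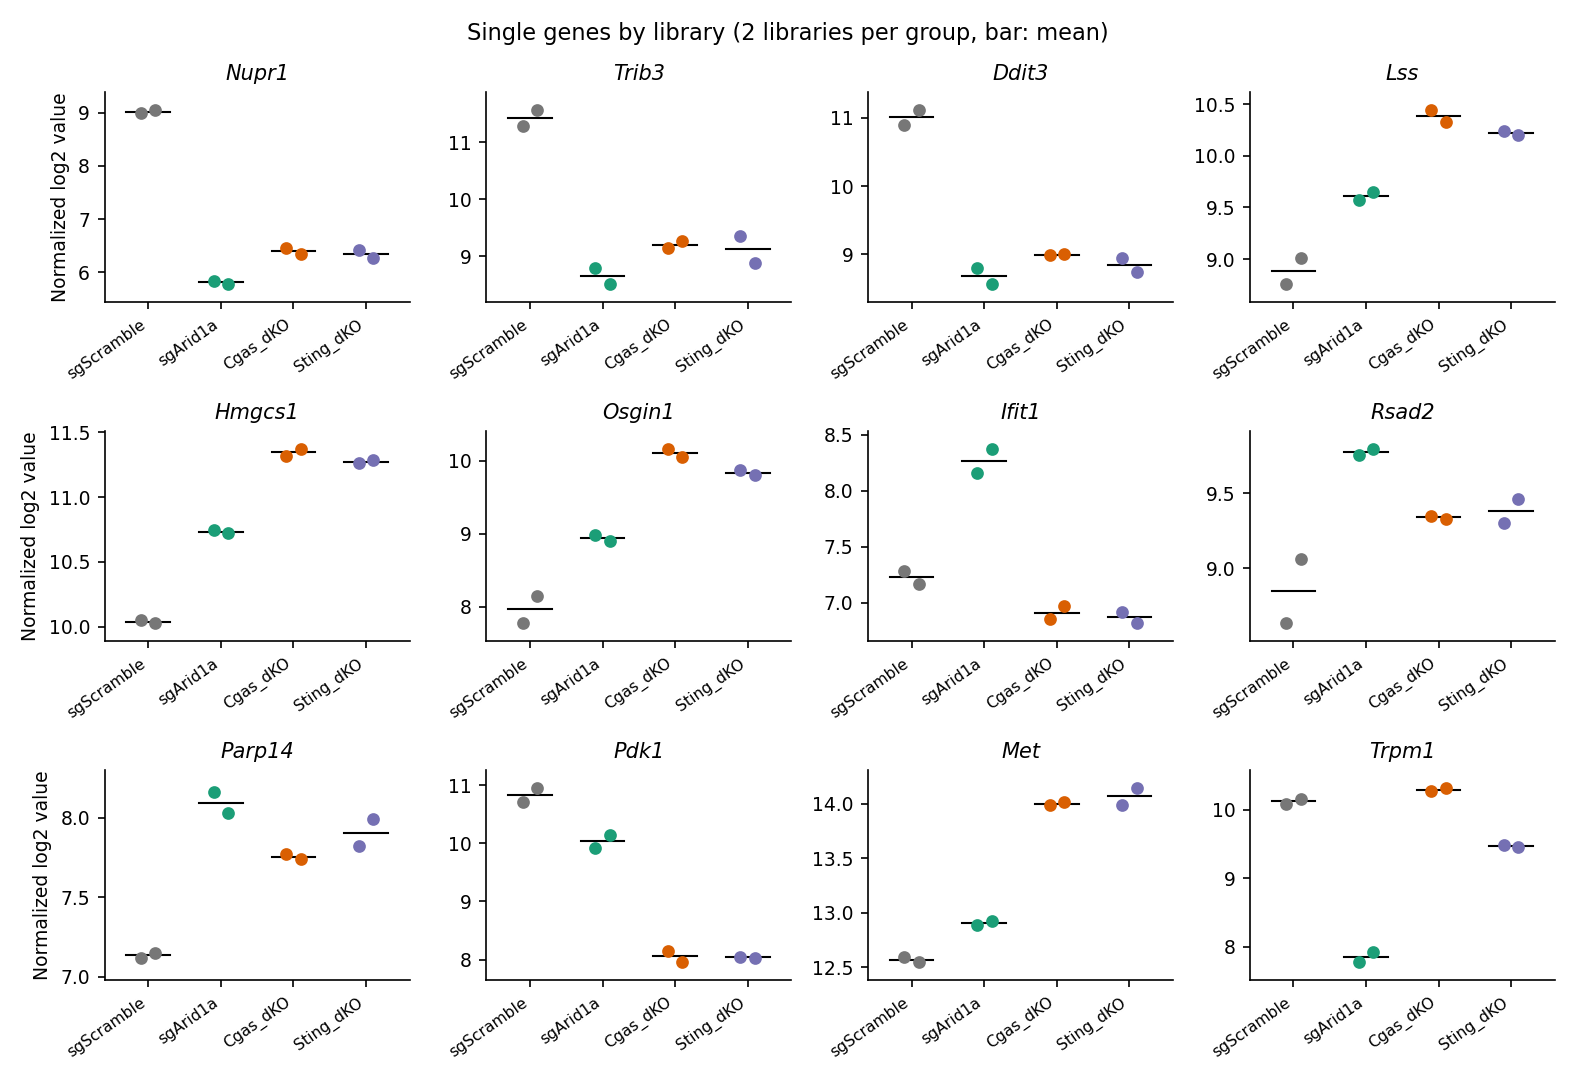
Normalized log2 values of 12 genes in each library (points, 2 per group; bars are group means), with the groups sgScramble, sgArid1a, Cgas_dKO and Sting_dKO along the horizontal axis. Nupr1, Trib3 and Ddit3 are low in all 3 edited groups, and Lss, Hmgcs1 and Osgin1 are high. Met is high in the double knockouts and only 0.33 above sgScramble in sgArid1a. Ifit1 is high in sgArid1a alone, at 8.16 and 8.37 against 6.82 to 6.97 in the double knockouts.

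Interferon-stimulated genes were higher in sgArid1a and mostly lower again in the double knockouts. In untreated sgArid1a, 30 of 41 tested type I interferon-stimulated genes were higher than in sgScramble and none lower (background 5.85% and 6.31%), with a median of 0.51. In the double knockouts 16 were higher and 4 lower (background 25.5% and 21.1%), with a median of 0.21. Directly against sgArid1a 24 were lower and 2 higher (background 15.9% and 18.1%), with a median of -0.33. These comparisons share libraries, so their counts stand side by side and are not independent. Without sgArid1a replicate 1 or replicate 2 the 30 became 16 in either case and the 24 became 14 or 13. Without sgScramble replicate 2 the 16 genes higher in the double knockouts became 12, and without Cgas_dKO replicate 1 they became 11.

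Ifit1, an antiviral protein that binds foreign RNA caps, stood at 7.28 and 7.17 in sgScramble, 8.16 and 8.37 in sgArid1a, 6.85 and 6.97 in Cgas_dKO, and 6.92 and 6.82 in Sting_dKO. The double knockouts were 1.37 ± 0.10 below sgArid1a on the log2 scale (adjusted p = 2.2e-07) and below both controls too, by 0.33 ± 0.10 (adjusted p = 0.017, or 0.08 without sgScramble replicate 1 and 0.062 without Cgas_dKO replicate 1). Under quantile normalization that difference was -0.17 (adjusted p = 0.19). Isg15, a ubiquitin-like modifier, was at 6.34 and 6.24, then 6.92 and 6.85, then 6.01 to 6.06 (-0.84 against sgArid1a, adjusted p = 9.3e-06). Its difference from sgScramble, -0.25 (adjusted p = 0.036), did not pass when any 1 of several libraries was left out, for example 0.15 without sgScramble replicate 1.

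Other members lay between sgScramble and sgArid1a. Parp14, an ADP-ribosyltransferase, was at 7.12 and 7.15 in sgScramble, 8.16 and 8.03 in sgArid1a, 7.77 and 7.74 in Cgas_dKO, and 7.82 and 7.99 in Sting_dKO. All 4 double knockouts lay above both controls (0.69 ± 0.10, adjusted p = 7.3e-05) and below both sgArid1a libraries (-0.26, adjusted p = 0.048). Rsad2 (viperin) lay between as well, at 8.64 and 9.06, 9.75 and 9.79, and 9.30 to 9.46, 0.51 ± 0.11 above sgScramble (adjusted p = 0.0019) and -0.41 from sgArid1a (adjusted p = 0.011). Ddx58, which encodes the RNA sensor RIG-I, was 0.43 ± 0.09 above sgScramble (adjusted p = 0.0016) and -0.23 from sgArid1a (adjusted p = 0.062).

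Single members differed from this. Pml, the scaffold of PML nuclear bodies, rose by 0.79 ± 0.09 over sgScramble and was 0.29 above sgArid1a (adjusted p = 0.028). Usp18, the deconjugase of Isg15, was 0.29 from sgScramble (adjusted p = 0.056) and -0.44 from sgArid1a (adjusted p = 0.011), and Irf7 was 0.07 from sgScramble (adjusted p = 0.47). Ifit3 (61.8% of words shared) was set apart. Of the 6 set-apart members 4 were called lower and 1 higher than in sgScramble (background of set-apart genes 46.5% and 12.3%).

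The interferon genes of the DMSO list were counted apart. Of its 342 higher genes, 33 belong to the interferon, MHC class I or nucleic acid sensing lists. Of these, 20 were higher and 1 lower in the double knockouts than in sgScramble (background 25.5% and 21.1%), with a median of 0.29, and 23 were lower and 1 higher than in sgArid1a (background 15.9% and 18.1%), with a median of -0.39. The other 309 genes were higher than sgScramble in 249 cases, and against sgArid1a 100 were higher and 38 lower, with a median of 0.15. The 20 became 13 without Cgas_dKO replicate 1, and the 23 became 14 without sgArid1a replicate 2. Between the double knockouts, no gene of the 342 and 2 of the 422 differed.

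The promoters of Ifit1 and Isg15 are shown for their interferon-stimulated response elements, GAAANNGAA on either strand, in capitals. Overlapping matches run together. The motif was found in 13 of 30 matched promoters of the list, against 8.56% of all promoters, and in 2 of 14 of the stress response list.
Ifit1 (chr19:34640750-34640843, plus strand): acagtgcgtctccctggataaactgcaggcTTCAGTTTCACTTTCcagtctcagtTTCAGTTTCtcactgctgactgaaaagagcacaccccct
Isg15 (chr4:156200837-156200926, minus strand): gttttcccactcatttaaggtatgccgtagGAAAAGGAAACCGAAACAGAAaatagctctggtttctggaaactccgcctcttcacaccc

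Neighbouring interferon lists were mixed. Of 11 genes that lean to interferon gamma, 7 were higher and 1 lower than in sgScramble (background 25.5% and 21.1%), and 6 were lower than in sgArid1a (background 15.9%). Without Cgas_dKO replicate 1 the 7 became 4, and without sgArid1a replicate 2 the 6 became 2, both nearer the background. The transcription factor Irf1 was at 7.88 and 8.18, 8.85 and 8.87, and 8.47 to 8.61 in sgScramble, sgArid1a and the double knockouts (0.52 ± 0.10 over sgScramble, adjusted p = 0.00092). The chemokine Cxcl10 fell by 0.51 ± 0.11. Of 13 MHC class I genes 5 were higher and 2 lower than in sgScramble, near the background of 25.5% and 21.1% (1 lower without Cgas_dKO replicate 1 or Sting_dKO library 18), and 7 were lower than in sgArid1a (background 15.9%, 4 without its replicate 2). The higher ones included the chaperone Calr (0.59 ± 0.09), and B2m, the light chain of class I, fell from 13.16 and 12.35 to between 11.84 and 12.10 (-0.80 ± 0.16, adjusted p = 0.0011). H2-K1, a class I heavy chain with 22.8% of its words shared, was set apart at -2.28. Nucleic acid sensors and their helpers were higher in 11 of 22 cases with none lower (7 without Cgas_dKO replicate 1 or Sting_dKO library 18), against a background of 25.5%, among them Adar (0.54 ± 0.08), Samhd1 (0.49 ± 0.08) and the kinase Tbk1 (0.49 ± 0.10).

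Hypoxia and glycolysis genes fell further in the double knockouts than in sgArid1a. Of 20 tested, 15 were lower and 1 higher than in sgScramble (background 21.1% and 25.5%), with a median of -0.74. Against sgArid1a, 14 were lower and 1 higher (background 15.9% and 18.1%). The background for lower genes was 6.31% in untreated sgArid1a and 4.48% in DMSO. In untreated sgArid1a 5 were lower, though 15 were without sgScramble replicate 1 and 3 without sgArid1a replicate 2, and in DMSO 3 of 17. Pdk1, the kinase that inhibits pyruvate dehydrogenase, stood at 10.71 and 10.95 in sgScramble and 9.92 and 10.15 in sgArid1a. It was at 8.15 and 7.96 in Cgas_dKO, and 8.05 and 8.02 in Sting_dKO (-2.78 ± 0.10 from sgScramble, adjusted p = 1.7e-10). It fell in steps, with no overlap between the 3 levels. Vegfa, the angiogenic growth factor, was at 10.67 and 10.63, 9.64 and 9.81, and 8.78 to 9.04 (-1.75 ± 0.09). Slc2a1, the glucose transporter GLUT1, fell by 1.07 ± 0.09. All 8 set-apart members fell too (background of set-apart genes 46.5%), with a median of -2.36. The list thus leans on genes of the kind described above: Ldha, with 19.6% of its words shared, fell by 1.51. With genes from 5% on set apart, 11 of 15 were lower and 1 higher.

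Mitochondrial and ribosomal protein genes were lower in part. Of 25 respiratory chain genes 11 were lower and 1 higher than in sgScramble (background 21.1% and 25.5%) and 10 lower than in sgArid1a (background 15.9%). Without sgArid1a replicate 1 the 10 became 5, near the background. Ppargc1a, the coactivator that drives mitochondrial genes, went from 9.23 and 8.83 to between 6.73 and 7.02 (-2.16 ± 0.13, adjusted p = 2.1e-08). Of ribosomal proteins 9 of 10 were lower (background 21.1%), and 17 of 18 set-apart ones, in double knockouts against sgScramble, whereas none of the 10 was called in sgArid1a (5 higher and 1 lower without sgScramble replicate 2). These are short genes with many copies, and 46.5% of all set-apart genes were lower in the double knockouts than in sgScramble.

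By size, the largest rises without near-identical copies included, beside Mir6236, that of Osgin1. Osgin1, an oxidative stress response gene, stood at 7.78 and 8.15 in sgScramble, 8.98 and 8.90 in sgArid1a, 10.16 and 10.05 in Cgas_dKO, and 9.87 and 9.80 in Sting_dKO (2.0 ± 0.10, adjusted p = 4.8e-09). Srxn1, sulfiredoxin, which repairs oxidised peroxiredoxins, rose by 1.56 ± 0.09, and both were also higher in DMSO sgArid1a, by 0.49 and 0.40. Peg10, a retrotransposon-derived imprinted gene, rose by 1.55 ± 0.09, Mcc by 1.59 ± 0.09 and the lipoprotein receptor Lrp8 by 1.70 ± 0.09. Met, the receptor of hepatocyte growth factor, went from 12.59 and 12.55 to between 13.99 and 14.14 (1.46 ± 0.08, adjusted p = 7.9e-09). In sgArid1a it was at 12.89 and 12.92, and the difference from sgArid1a was 1.13 (adjusted p = 1.2e-07).

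The largest falls by the same rule were nearly all of genes with 10 to 20% of their words shared. They were led by Gm5148 (-6.45), C330021F23Rik (-5.81) and Tpt1 (-4.79), none of which was called between untreated sgArid1a and sgScramble. In DMSO, Tpt1 was at 8.14 and 8.64 in sgScramble itself, against 11.11 and 11.65 in untreated sgScramble. It was lower there with sgArid1a (-0.70 ± 0.14, limma adjusted p = 0.01). Gm5148 and C330021F23Rik were at 0 in the DMSO libraries of sgScramble as well as sgArid1a. Control libraries thus also had low values of these genes, though the scales of the separate deposits may differ. Below 5% shared, a limit set after the values were seen, the largest falls were of Slc16a3, the lactate exporter (-2.92 ± 0.18), Pdk1, Vldlr, Nupr1 and the homeobox gene Hoxb9 (-2.30 ± 0.09). Hoxb9 was at 7.52 and 7.57 in sgScramble, 5.23 and 5.06 in sgArid1a, and 5.14 to 5.38 in the double knockouts, and the double knockouts differed from sgArid1a by 0.10 ± 0.09 (adjusted p = 0.43). Ahnak, a very large scaffold protein, fell by 2.0 ± 0.12 (-1.86 in sgArid1a, -1.47 in DMSO), and Cyb5r2, a cytochrome b5 reductase, by 1.79 ± 0.11.

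Melanocyte genes were mixed. Of 19 genes of melanin synthesis and melanosomes 2 were higher and 8 lower in the double knockouts than in sgScramble (background 25.5% and 21.1%), with a median of -0.19. Of 12 lineage regulators and receptors 3 were higher and 6 lower (3 lower without Cgas_dKO replicate 2 or Sting_dKO library 17). In untreated sgArid1a, 5 were lower in either list (background 6.31%). Trpm1 and Tyr were well above their sgArid1a levels. Trpm1, the melanocyte cation channel and host gene of miR-211 (chr7:64185459-64224836, plus strand), stood at 10.08 and 10.16 in sgScramble, 7.78 and 7.93 in sgArid1a, 10.27 and 10.31 in Cgas_dKO, and 9.48 and 9.45 in Sting_dKO. It was 2.02 ± 0.08 above sgArid1a in the double knockouts (adjusted p = 5.2e-10), and in DMSO sgArid1a the difference was -1.52. The sgArid1a libraries were low, Cgas_dKO was just above the controls and Sting_dKO below them. Sting_dKO was -0.66 from sgScramble (adjusted p = 0.00015), and the mean of the double knockouts was -0.24 from sgScramble (adjusted p = 0.028, or 0.096 without sgScramble replicate 2 or Cgas_dKO replicate 1). Tyr, tyrosinase, was at 12.19 and 12.04, 11.41 and 11.56, and 12.51 to 12.60, above the controls by 0.45 ± 0.08 (adjusted p = 0.00056).

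Kit and Mitf were low in sgArid1a and in the double knockouts. Kit, the stem cell factor receptor, went from 9.11 and 8.89 to 7.33 and 7.84 in sgArid1a and 7.11 to 7.40 in the double knockouts (-1.72 ± 0.13, adjusted p = 2.9e-07), and Mitf, the lineage transcription factor, fell by 0.54 ± 0.08. Sytl2, a melanosome transport protein, fell by 1.19 ± 0.08. Fbln1, a matrix glycoprotein, fell by 1.37 ± 0.07 and Spp1, osteopontin, by 1.79 ± 0.09, both also lower in sgArid1a (-1.08 and -1.44). Other matrix genes rose, among them Thbs1 by 0.89 ± 0.09 and Nid1 by 0.78 ± 0.11. Of 25 tested collagens and matrix proteins, 10 were higher and 6 lower in the double knockouts than in sgScramble (background 25.5% and 21.1%).

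A few genes went against their DMSO direction. The 7 that were higher with sgArid1a in DMSO and lower in the double knockouts than in sgScramble were Serpine2, Hapln1, Ptprj, Ifit1, Anxa4, Slbp and Glo1, from -0.76 to -0.27. The 6 that went the other way were Tyr, Abcc2 (0.94), the nuclear RNAs Neat1 (0.75) and Firre (0.72), Prkcq (0.35) and Prob1 (0.27). All were chosen for naming after their values were seen. Neat1 did not pass without sgScramble replicate 1 (0.42, adjusted p = 0.099).

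DNA replication genes were higher in 17 of 23 cases (background 25.5%) with none lower, with a median of 0.47 (10 higher in sgArid1a, 1 without either of its replicates and 6 without either Cgas_dKO replicate). The background for higher genes in untreated sgArid1a was 5.85%. Ccne1, cyclin E1, rose from 9.38 and 9.32 to between 9.94 and 10.06 (0.67 ± 0.08), and Mcm10, a replication initiation factor, by 0.64 ± 0.08. Of 29 genes for R-loop resolution and replication stress, a theme named in the title of the series, 19 were higher and 1 lower in the double knockouts against sgScramble (background 25.5% and 21.1%), while 1 was higher in sgArid1a and 12 were higher in the double knockouts than in sgArid1a (background 18.1%, 5 without sgArid1a replicate 2). Fanca, a Fanconi anaemia core protein, rose by 0.70 ± 0.09, and the helicases Ddx21 and Dhx9 by 0.59 ± 0.08 and 0.54 ± 0.10.

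The Cgas and Sting double knockouts were close to each other. Only 4 of 9952 genes (0.0402%) differed between them at an adjusted p under 0.05 in limma, and 720 at an unadjusted p under 0.05. In the authors' deposited table, from edgeR, 26 genes without near-identical copies were higher and 143 lower in Sting_dKO than in Cgas_dKO. Those counts are without the filter on low values, where limma gave 4 higher and 5 lower, so the number that differ depends on the method. Correlations between libraries of different double knockouts were 0.995 or more across genes, which are not independent replicates, and those between a double knockout and any of the other 4 libraries 0.985 or less.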

How the data were processed

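RNA-seq was made from polyA RNA with a stranded kit, per the labels' protocols. Reads were aligned with STAR 2.5.3a to mm10, per the submitters' processing notes. HOMER counted exon reads per gene and passed them to edgeR, per the file headers, where no strand option is named, so reads of overlapping antisense genes may not be separated. The authors deposited normalized log2 values, with low values drawn together, plus log2 fold changes and adjusted p-values. The transformation is not given in the sources used here. No counts per gene were used, so each library's total reads, from the headers, are the only measure of depth.

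Of 24537 rows, 7663 were 0 in every library. A gene was tested where its log2 values averaged 4 or more over the 8 libraries (11604 genes), with limma 3.58.1 in R 4.3.3 (trend, no pseudocount), with the 4 groups of the table in 1 fit. P-values were adjusted by Benjamini and Hochberg over all tested genes, and a call is an adjusted p under 0.05. The double-knockout value is the mean of the Cgas_dKO and Sting_dKO means. Differences are in log2 units with standard errors. The DMSO table was fitted separately in the same way. The script was tested on simulated data.

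Shared sequence was the percent of a gene's 31-base words (GENCODE transcripts, either strand) found in another gene. Of the tested genes 11370 matched by accession, 182 by symbol and 5 by synonym. Genes at 20% or more were set apart. Among the deposited values, 8 per-sample columns without a sample in the labels were not used.

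The genes and lists described were chosen with earlier results of these data known. Named genes were the targeted genes, up to 12 genes that rose most and 12 that fell most, up to 4 per list with the smallest p, an interferon panel, up to 5 in each direction between the double knockouts, up to 6 set-apart genes, and up to 8 each way from the DMSO lists. Other list members, among them Atf4, Asns, Insig1, Shmt2, Phgdh and Slc2a1, were named after their values were seen. Alternatives were other filters, scalings, copy thresholds, library subsets, eBayes settings, a replicate block and leaving out each library. Replicate numbers did not pair the samples: correlations of same-numbered deviations were -0.40, -0.14 and 0.16. Results for some genes are not reported here.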

Additional observations from a re-analysis of the deposited data

Results flagged for a closer look

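Of the genes without near-identical copies, 4 differed between the Cgas and Sting double knockouts (Sting_dKO minus Cgas_dKO, limma adjusted p under 0.05, 2 against 2 libraries). Scel, sciellin, a protein of the cornified envelope, was at 3.66 and 3.66 in Cgas_dKO and 5.77 and 5.96 in Sting_dKO, a difference of 2.21 ± 0.09. The other 4 libraries, at 3.64 to 3.88, were near Cgas_dKO. Scel passed the filter on low values (a mean of at least 4) only through Sting_dKO, where it is high, so this difference is given as a description; at a mean of at least 6 it is not tested. Trpm1 differed by -0.82 ± 0.10 (adjusted p = 0.0065), with Cgas_dKO just above sgScramble and Sting_dKO below it.

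Mgll, monoacylglycerol lipase, was at 8.82 and 8.87 in Cgas_dKO and 8.05 and 7.97 in Sting_dKO (-0.84 ± 0.11, adjusted p = 0.017). The sgScramble libraries were at 9.01 and 9.18 and sgArid1a at 8.21 and 7.99. Rpl39, a ribosomal protein, was at 9.27 and 9.69 in Cgas_dKO and 8.46 and 8.05 in Sting_dKO (-1.22 ± 0.16, adjusted p = 0.016), and at 10.98 to 11.56 in the other 4 libraries. The cause of these differences was not tested.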

How the results depend on the processing

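No result reversed under any alternative that was run. Leaving out each library in turn gave 1966 to 2540 genes higher and 1686 to 2177 lower in the double knockouts than in sgScramble, 1045 to 2406 and 1074 to 2077 for Cgas_dKO (lowest without its replicate 1), and 1221 to 2310 and 1147 to 1960 for Sting_dKO (lowest without library 18). The ranges were 647 to 2385 and 759 to 2040 for the double knockouts against sgArid1a, 144 to 1342 and 254 to 1112 for untreated sgArid1a against sgScramble, and 1 to 4 and 0 to 23 for Sting_dKO against Cgas_dKO. The DMSO-higher and DMSO-lower genes followed in 63.4% to 81.1% and 49.7% to 92.4%. Where 1 library remained in a group, it was assumed to vary like the other groups.

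With only the libraries of the comparison in the fit, untreated sgArid1a against sgScramble gave 219 higher and 336 lower, and Sting_dKO against Cgas_dKO 4 and 28. That last pair was 4 and 5 with no filter, and 0 higher at a mean of at least 6. Quantile normalization gave 2862 genes higher against sgArid1a. Genes with no shared 31-base word, an alternative chosen after seeing the data like the 5% threshold and the DMSO leave-outs, gave 526 higher and 536 lower, fewer because 2353 genes were left. Apart from that subset of genes, the cause of each shift was not tested. With a replicate block, in which the Sting_dKO libraries carry no number, 2336 genes were higher and 1974 lower than in sgScramble, and 75.7% and 79.1% of the DMSO lists followed. The block ended the calls of Mb21d1 (adjusted p = 0.051) and Rela (0.068) and changed no other call of a named gene. Depth ran from 8.7 to 22.8 megareads a library, and without counts per gene no counting error could be given.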
